A study of Mus musculus with 8 samples.

Results

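The interferon-stimulated and innate sensing genes of the liver were described in 8 mice, 4 control and 4 treated with MOCA. The genes were a written list of 34 symbols covering nucleic acid sensors, the kinases and transcription factors they act through, the type I interferon receptor and interferon-stimulated effectors. No expression threshold was used to pick their rows, but the list was chosen with earlier results of these data known. All 34 were found among the 15210 genes of the deposited table. All mice were female F1-TKm30 mice, aged 17 or 21 weeks with no age tied to a given mouse. They are NOG mice, an immunodeficient background whose scid and interleukin-2 receptor gamma mutations leave no mature T, B or NK cells, and they carry a mutant herpes simplex virus thymidine kinase (HSVtk clone 30) driven by the mouse transthyretin enhancer/promoter, a hepatocyte control region. MOCA is 4,4'-methylenebis(2-chlorobenzenamine), an aromatic amine used to cure polyurethanes, and it was given at 0.05% for 4 weeks, with 0% in the controls. The controls carry the same transgene and background, so no mouse here lacks it. The treatment label names C57BL mice where the strain label and the series text name F1-TKm30 mice, and the latter is used here.

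Cells sense viral or misplaced RNA with the helicases RIG-I (Ddx58) and MDA5 (Ifih1), which signal through the mitochondrial adaptor Mavs to the kinases TBK1 and IKK-epsilon (Ikbke). These kinases phosphorylate Irf3 and Irf7, which switch on type I interferon genes. Secreted interferon binds Ifnar1 and Ifnar2 on the same or neighbouring cells, and a complex that contains Stat2 and Irf9 then binds the interferon-stimulated response element in the promoters of antiviral effectors, many sensors and Irf7 itself. In liver, hepatocytes, Kupffer cells (the resident macrophages) and sinusoidal endothelium all carry this pathway.

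Promoters are shown first for the gene that changed with treatment (Ikbke) and for 3 of the effectors that were high in MOCA mouse 4 (Isg15, Rsad2 and Ifit1). Sequences are from RefSeq on build GRCm38.p6, 5′ to 3′ in the direction of the gene, and end at the base before the gene starts. Capitals mark the core of the interferon-stimulated response element, searched as GAAANNGAAA on both strands, so that it also reads as its reverse complement. The regions are chr1:131279602-131279763 on the minus strand for Ikbke, chr4:156200819-156201018 on the minus strand for Isg15, chr12:26456453-26456652 on the minus strand for Rsad2 and chr19:34640689-34640888 on the plus strand for Ifit1.
Ikbke: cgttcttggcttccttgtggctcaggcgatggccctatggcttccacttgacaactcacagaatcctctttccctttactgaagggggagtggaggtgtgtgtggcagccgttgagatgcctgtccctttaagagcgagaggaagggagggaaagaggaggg
Isg15: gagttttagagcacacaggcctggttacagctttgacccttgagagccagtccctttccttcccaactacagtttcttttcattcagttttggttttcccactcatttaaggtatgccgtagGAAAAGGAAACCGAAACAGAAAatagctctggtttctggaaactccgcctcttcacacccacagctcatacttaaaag
Rsad2: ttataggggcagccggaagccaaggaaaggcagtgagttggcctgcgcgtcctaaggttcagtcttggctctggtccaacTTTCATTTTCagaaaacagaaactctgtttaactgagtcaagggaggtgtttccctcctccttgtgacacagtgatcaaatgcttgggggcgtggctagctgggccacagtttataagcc
Ifit1: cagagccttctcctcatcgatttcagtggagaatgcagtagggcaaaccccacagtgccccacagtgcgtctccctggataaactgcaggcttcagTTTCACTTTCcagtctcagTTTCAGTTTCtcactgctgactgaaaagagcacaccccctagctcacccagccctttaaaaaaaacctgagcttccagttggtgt

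Counted from the gene start, Isg15 had 3 overlapping cores between -78 and -57. Ifit1 had a core from -104 to -95 and another from -85 to -76, and Rsad2 had a core from -120 to -111. The Ikbke stretch held no core and no GAS element (TTCNNNGAA, the site through which interferon-gamma acts), which says only that these letters are not in this window. RefSeq promoters running from 250 bases before to 50 after the start were matched for 28 of the 34 genes. The element core was found in 14 of these 28 (50%), against 3.99% of the 27025 genes with a promoter of this length, and the GAS element in 7 of the 28 (25.0%), against 9.55%. Promoters of Zbp1, Mx1, Usp18, Mx2, Dhx58 and Rtp4 had no entry in the sequence table. The 3 effectors shown all held a core, but none was found in this window for some other effectors high in MOCA mouse 4. These were Xaf1, Ifi44 and Oasl1, with ratios of MOCA mouse 4 to the control mean of 2.76, 2.74 and 2.65. That ratio was 2.31 for Isg15. Some windows were shifted into the gene, to differing degrees. Of the 200 bases before the window's start site, 168 for Xaf1 and 97 for Oasl1 lay inside the gene. A core further upstream, or a variant of it, would have been missed.

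Expression was measured by directional RNA-seq of ribosome-depleted liver RNA, with 1 library per mouse. Values below are the deposited normalised counts, in scaled CPM (reads of a gene relative to the effective size of its library). Libraries held 15024945 to 17101844 reads, the MOCA libraries from 15024945 to 15970453 and the control libraries from 16077424 to 17101844, and 1 read was worth 0.0581 to 0.0648 CPM. Differences are given as log2 fold changes of MOCA against control on the log2(value + 1) scale with standard errors (SE), tested with limma over the 12008 genes that reached 1 CPM in at least 4 libraries, and adjusted by Benjamini-Hochberg over those genes. A call means an adjusted p under 0.05. Hepatocyte markers were abundant in every library (Alb between 57170 and 75231), Clec4f of Kupffer cells lay between 99.5 and 137, and Cd3e and Ncr1, defining genes of T and NK cells, were not among the 15210 genes. In bulk liver RNA, fewer cells of a type and less RNA per cell cannot be told apart.

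Of the 34 genes, 33 passed the minimum and Mx1 did not. Treatment with MOCA raised 1 of the 33, the kinase gene Ikbke, lowered none, and left 32 without a call. That is 3.03% of the tested genes of the list, beside 0.666% of all 12008 genes tested, which were 48 higher (0.4%) and 32 lower. At an unadjusted p under 0.05 the list had 4 genes (12.1%), beside 17.5% of all tested genes. The 4 were Ikbke, Ifih1, Usp18 and Oasl1, all higher with MOCA. Over all tested genes 2098 passed in either direction, 1131 of them higher. The edgeR quasi-likelihood test on whole reads called 1 gene of the list, again Ikbke (all genes 0.683%), and DESeq2 called 2, Ikbke and Ifih1 (all genes 3.54%). Fold changes were positive for 27 genes and negative for 6, with a median of 0.16 on the log2 scale, beside a median of 0.0051 and 51.1% positive over all tested genes.

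The size of that median rested on 1 mouse. Without MOCA mouse 4 the list had 19 positive and 14 negative fold changes (57.6% positive, all genes 51.7%) and a median of 0.023 on the log2 scale. Ikbke was again the only call (all genes 0.325%). At an unadjusted p under 0.05 there were 4 genes (all genes 13.9%): Ikbke and Ifih1 higher, and Ifit2 and Ifit3 lower. Values of the genes of the list are therefore given by mouse, in the order 1 to 4 of each group.

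**Figure D1:**
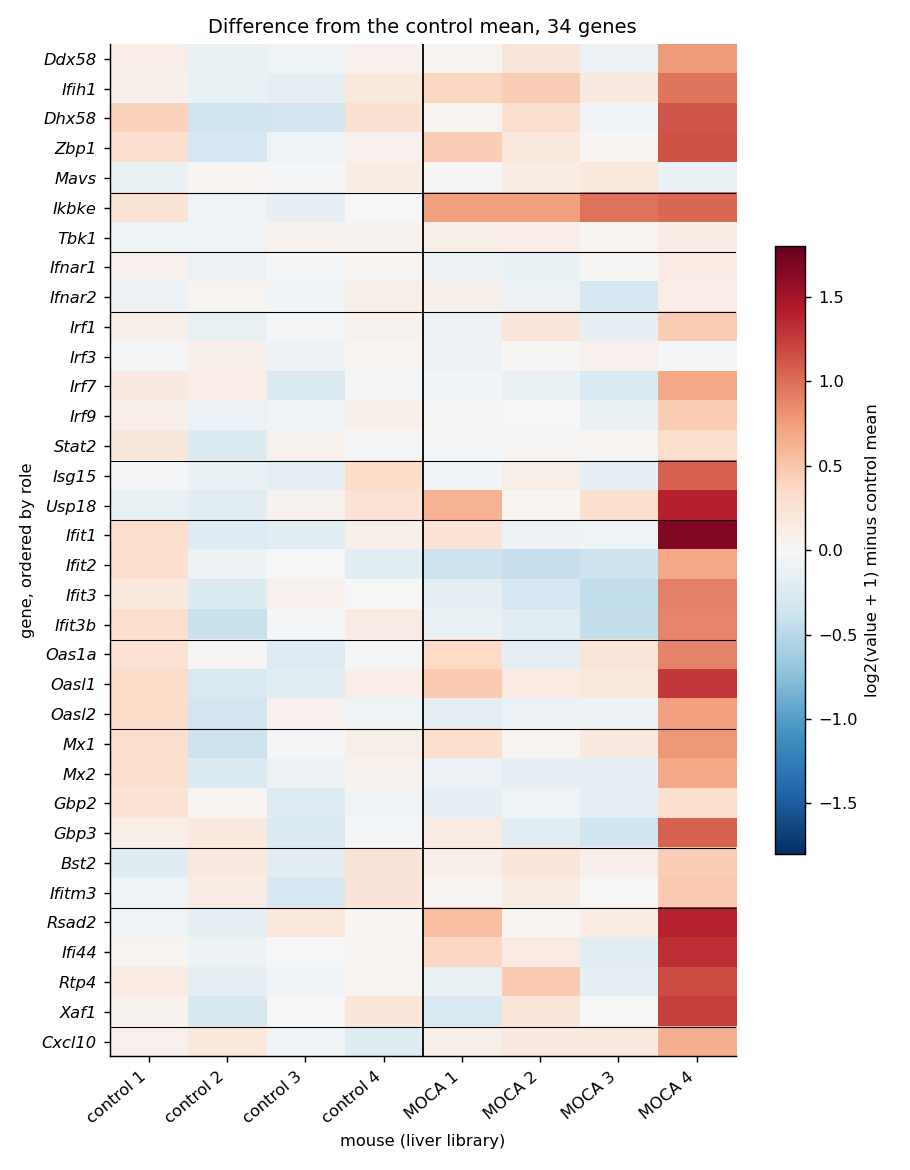
Heat map of the genes by mouse, coloured by the log2 difference of each value + 1 from the control mean, with genes in rows by role and mice in columns. Ikbke is high in all 4 MOCA mice, whereas the column of MOCA mouse 4 is high for most rows and MOCA mice 1 to 3 resemble the controls.

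Ikbke encodes IKK-epsilon, the inducible partner of TBK1 (chromosome 1, 131254600 to 131279601, minus strand, mm10). The gene stood at 7.67, 5.92, 5.62 and 6.30 CPM in the control mice and at 11.3, 11.3, 13.5 and 14.0 CPM in the MOCA mice. Each MOCA mouse was above each control mouse, and MOCA mouse 4 was only 1.04 times the next highest. Complete separation of this kind was seen for 1 of the 33 genes in the upward direction, beside 5.5% of all tested genes, and for 0 in the downward direction, beside 4.96%. Group means were 6.38 ± 0.906 CPM in controls and 12.5 ± 1.44 CPM with MOCA (SD, n = 4 each), a log2 fold change of 0.87 (SE 0.11; limma adjusted p = 0.00833). Leaving out MOCA mouse 4 gave 0.82 on the log2 scale (limma adjusted p = 0.0222). Leaving out any of the 8 mice in turn kept the call, with limma adjusted p from 0.0104 to 0.0328. The values rest on 91 to 132 reads per control library and 175 to 229 per MOCA library. Exons of the antisense genes Gm28914 and Gm28913 overlap 159 and 65 bases of Ikbke exons, and no source used here says whether reads were counted by strand.

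Tbk1, the constitutive kinase of the pair, did not pass the test. It measured 27.5, 27.6, 30.4 and 30.4 CPM in control mice and 31.1, 31.5, 29.7 and 32.0 CPM in MOCA mice, with MOCA mouse 3 inside the control range. Its log2 fold change was 0.10 (SE 0.07; limma adjusted p = 0.507). In controls Tbk1 stood at 7.41 CPM per kilobase of exon and Ikbke at 0.707, so that Ikbke ranked 31st of the 34 genes by level per length. These lengths join all annotated exons (3.91 kb for Tbk1 and 9.02 kb for Ikbke), and the rank depends on that measure.

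**Figure D2:**
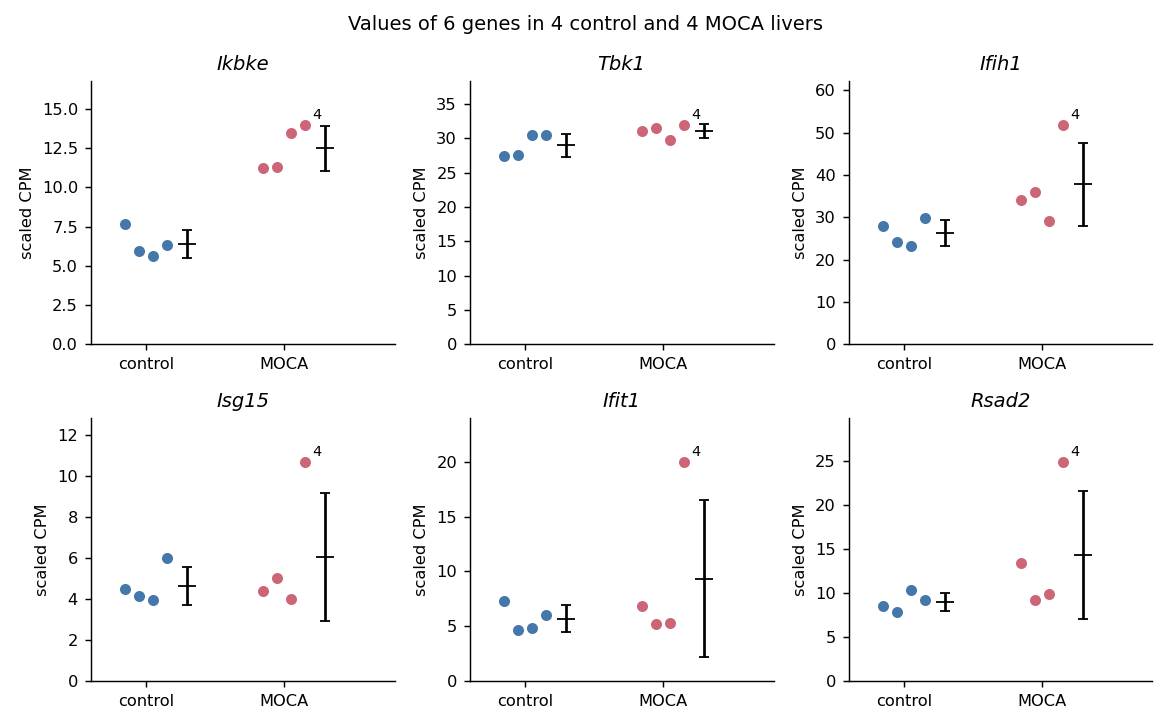
Values in scaled CPM of 6 genes in each mouse, with controls and MOCA mice side by side, each point a mouse and the black marks beside them the group mean ± SD (n = 4). Ikbke separates the groups, Tbk1 does not, and for Ifih1, Isg15, Ifit1 and Rsad2 MOCA mouse 4, marked 4, lies above all other points.

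For the sensors and the adaptor Mavs, all 5 fold changes were positive with and without MOCA mouse 4, and limma called none. Ifih1, the MDA5 gene that recognises long double-stranded RNA, measured 28.0, 24.1, 23.1 and 29.8 CPM in controls and 34.1, 36.0, 29.2 and 51.8 CPM with MOCA. MOCA mice 1, 2 and 4 were above every control, and MOCA mouse 3 lay just under the highest control. The log2 fold change was 0.48 (SE 0.15; limma adjusted p = 0.153), and 0.32 without MOCA mouse 4 (limma adjusted p = 0.232). DESeq2 called it, with an adjusted p of 0.0495. Ddx58, the RIG-I gene that recognises RNA with 5′ triphosphate ends, measured 28.2, 24.0, 24.6 and 27.4 CPM in controls and 27.0, 30.4, 24.1 and 45.0 CPM with MOCA. Only MOCA mouse 4 and, by a small margin, MOCA mouse 2 exceeded the highest control, and the log2 fold change of 0.23 became 0.06 without MOCA mouse 4 (limma adjusted p = 0.473 with it).

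Dhx58, whose product LGP2 regulates both other helicases, was at 11.4, 6.25, 6.42 and 10.3 CPM in controls and at 8.65, 10.4, 8.03 and 19.4 CPM with MOCA. MOCA mice 1 to 3 fell within the control range, and MOCA mouse 4 was 1.70 times the highest control. Zbp1, a sensor of Z-form nucleic acid linked to necroptosis, was at 6.45, 3.86, 4.69 and 5.34 CPM in controls and at 7.19, 5.87, 5.18 and 12.3 CPM with MOCA, again with MOCA mouse 4 far above the rest. Its log2 fold change was 0.46 (SE 0.22; limma adjusted p = 0.309), and 0.23 without that mouse. The adaptor Mavs was the exception in MOCA mouse 4, where it was at its lowest: it measured 104, 115, 109.7 and 123 CPM in controls and 114, 124, 129 and 104 CPM with MOCA (limma adjusted p = 0.777).

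Neither chain of the type I interferon receptor was called. Ifnar1 lay at 65.2, 56.9, 60.7 and 63.5 CPM in controls and 57.8, 56.3, 62.5 and 68.0 CPM with MOCA (log2 fold change -0.01, SE 0.08; limma adjusted p = 0.959). Ifnar2 lay at 56.2, 62.7, 58.9 and 65.2 CPM in controls and 64.4, 56.2, 48.8 and 66.2 CPM with MOCA (log2 fold change -0.05, SE 0.10; limma adjusted p = 0.831). MOCA mouse 4 was the highest of 8 for both chains, but by only 1.04 and 1.02 times the next value.

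None of the 5 transcription factors was called, and they differed in how far MOCA mouse 4 stood from the rest. Irf3, present before any stimulus and activated by phosphorylation, measured 38.3, 42.1, 37.0 and 40.6 CPM in controls and 36.9, 40.1, 41.7 and 38.7 CPM with MOCA, with MOCA mouse 4 inside the control range. Irf7, itself an interferon-stimulated gene, measured 62.8, 60.7, 46.9 and 55.0 CPM in controls and 54.1, 51.4, 46.0 and 91.1 CPM with MOCA. For Irf7, MOCA mice 1 to 3 were under the control mean of 56.4 CPM and MOCA mouse 4 was 1.45 times the highest control. Its log2 fold change of 0.06 (SE 0.18; limma adjusted p = 0.898) turned to -0.15 without MOCA mouse 4.

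Irf9, the DNA-binding part of the interferon-activated complex, was at 34.7, 30.4, 30.8 and 35.0 CPM in controls and at 33.2, 32.4, 29.9 and 45.1 CPM with MOCA. Stat2, its partner, was at 52.8, 38.4, 47.7 and 45.3 CPM in controls and at 45.1, 46.7, 46.8 and 57.5 CPM with MOCA. Irf1, a factor induced strongly by interferon-gamma, was at 18.0, 15.1, 16.2 and 17.4 CPM in controls and at 15.5, 19.6, 15.0 and 23.3 CPM with MOCA. For each of these 3 genes MOCA mice 1 to 3 lay within or close to the control range, with only MOCA mouse 2 for Irf1 above it, while MOCA mouse 4 was the highest of the 8, by 1.29, 1.09 and 1.19 times the next value. In the same order their log2 fold changes were 0.08, 0.09 and 0.11 (limma adjusted p = 0.758, 0.704 and 0.705), and -0.04, 0.01 and -0.0063 without MOCA mouse 4. Exons of Irf9 share 123 bases with Rnf31 on the same strand, so some reads could belong to either gene, and Irf3 and Irf7 share 88 and 45 exon bases with Bcl2l12 and Phrf1 on the opposite strand.

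Isg15, a ubiquitin-like protein attached to other proteins during the interferon response, measured 4.47, 4.12, 3.95 and 6.0 CPM in controls and 4.39, 5.03, 4.02 and 10.7 CPM with MOCA. MOCA mice 1 to 3 lay inside the control range, and MOCA mouse 4 was 1.78 times the highest control. The group means of 4.64 ± 0.935 and 6.03 ± 3.13 CPM (SD, n = 4 each) were not called different by limma (log2 fold change 0.24, SE 0.24, adjusted p = 0.636), and the fold change was -0.03 without MOCA mouse 4. Usp18, which removes Isg15 and restrains the receptor, measured 5.29, 5.09, 6.23 and 7.32 CPM in controls and 9.67, 6.12, 7.45 and 17.2 CPM with MOCA. Here MOCA mice 1 and 3 also exceeded every control, and the log2 fold change was 0.59 (SE 0.24; limma adjusted p = 0.244), or 0.32 without MOCA mouse 4 (limma adjusted p = 0.394).

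The IFIT genes encode proteins that bind viral RNA and block its translation. Ifit1 measured 7.26, 4.64, 4.81 and 6.06 CPM in controls and 6.81, 5.22, 5.25 and 20.04 CPM with MOCA. MOCA mice 1 to 3 fell within the control range, and MOCA mouse 4 was 2.76 times the highest of the other 7, with a counting interval of 17.9 to 22.3 CPM (exact Poisson, 95%, counting error only). Because 1 mouse carried it, the log2 fold change of 0.43 had an SE of 0.33 (limma adjusted p = 0.528) and became 0.02 without that mouse. Ifit2 measured 10.7, 7.92, 8.58 and 7.26 CPM in controls and 6.36, 6.19, 6.35 and 14.5 CPM with MOCA. MOCA mice 1 to 3 were all below the lowest control and MOCA mouse 4 above the highest.

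Ifit3 measured 13.9, 10.2, 13.0 and 12.3 CPM in controls and 10.9, 9.73, 8.75 and 23.9 CPM with MOCA. MOCA mice 2 and 3 were below the lowest control, MOCA mouse 1 was inside the control range and MOCA mouse 4 was above the highest control. Without MOCA mouse 4 the log2 fold changes of Ifit2 and Ifit3 were -0.39 and -0.31 (limma adjusted p = 0.222 and 0.289). Ifit3b, a close copy of Ifit3, measured 4.30, 2.25, 3.21 and 3.78 CPM in controls and 2.99, 2.77, 2.20 and 6.90 CPM with MOCA. Its log2 fold change of 0.03 (limma adjusted p = 0.962) was -0.25 without MOCA mouse 4. No source used here says how reads were divided between these near-identical genes, so their separate values are uncertain, and the same holds to a lesser degree within the Oas, Gbp and Mx families.

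Oas1a makes the 2′-5′ linked oligoadenylates that activate RNase L. It measured 6.04, 4.96, 4.01 and 4.74 CPM in controls and 6.55, 4.25, 5.83 and 9.90 CPM with MOCA. Oasl1, a related protein that represses Irf7 translation, measured 6.91, 4.19, 4.50 and 5.82 CPM in controls and 7.70, 5.93, 6.16 and 14.2 CPM with MOCA, and Oasl2 measured 10.1, 5.99, 8.33 and 7.38 CPM in controls and 6.81, 7.16, 7.26 and 13.7 CPM with MOCA. MOCA mice 1 and 4 exceeded every control for Oas1a and Oasl1, and MOCA mouse 4 alone did so for Oasl2. The log2 fold changes were 0.32, 0.52 and 0.09 (limma adjusted p = 0.418, 0.273 and 0.860), and 0.14, 0.27 and -0.13 without MOCA mouse 4.

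The Mx and Gbp genes encode interferon-induced GTPases. Mx2 measured 7.44, 4.83, 5.49 and 6.24 CPM in controls and 5.47, 5.29, 5.25 and 10.2 CPM with MOCA. Mx1 was under the minimum for testing, at 1.10, 0.322, 0.679 and 0.840 CPM in controls and 1.08, 0.774, 0.907 and 1.95 CPM with MOCA, on 5 to 32 reads per library. MOCA mouse 4 was the highest of 8 for both, and the other MOCA mice overlapped the controls. Gbp3 measured 7.32, 7.60, 5.37 and 6.42 CPM in controls and 7.45, 5.67, 4.92 and 14.9 CPM with MOCA. Gbp2 measured 5.0, 4.19, 3.33 and 3.90 CPM in controls and 3.56, 3.80, 3.50 and 5.19 CPM with MOCA. These 2 genes of the Gbp cluster on chromosome 3 stood apart to unequal degrees in MOCA mouse 4, which was 1.96 times the highest other mouse for Gbp3 and 1.04 times for Gbp2. None of the tested GTPase genes was called: the log2 fold changes of Mx2, Gbp3 and Gbp2 were 0.08, 0.16 and -0.03 (limma adjusted p = 0.879, 0.788 and 0.939), and -0.13, -0.14 and -0.13 without MOCA mouse 4.

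Bst2 (tetherin, which holds budding virus at the cell surface) and Ifitm3 (which blocks viral entry from endosomes) were the most abundant genes of the list per kilobase of exon, at 149 and 317 CPM per kilobase in controls. Bst2 measured 115, 149.8, 116 and 156 CPM in controls and 141, 155, 142 and 181 CPM with MOCA. Ifitm3 measured 202, 234, 172 and 251 CPM in controls and 218, 233, 212 and 296 CPM with MOCA. Only MOCA mouse 4 exceeded every control, by 1.16 and 1.18 times, and neither was called (limma adjusted p = 0.385 and 0.567).

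Rsad2 encodes viperin, an enzyme that makes a chain-terminating nucleotide against viral polymerases. It measured 8.54, 7.86, 10.3 and 9.18 CPM in controls and 13.4, 9.22, 9.91 and 25.0 CPM with MOCA. MOCA mice 1 and 4 exceeded every control, and the log2 fold change was 0.53 (SE 0.24; limma adjusted p = 0.289), or 0.24 without MOCA mouse 4. Ifi44, an interferon-induced protein, measured 6.62, 5.86, 6.29 and 6.60 CPM in controls and 8.46, 7.16, 5.44 and 17.4 CPM with MOCA. For Ifi44 the controls were close together while the MOCA mice ran from below the lowest control to 2.06 times the highest other mouse. Its log2 fold change was 0.41 (SE 0.25; limma adjusted p = 0.421), and 0.11 without MOCA mouse 4.

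Rtp4, an interferon-induced chaperone of membrane receptors, measured 10.4, 8.18, 8.95 and 9.60 CPM in controls and 8.34, 13.2, 8.16 and 22.1 CPM with MOCA. Xaf1, which promotes cell death, measured 3.37, 2.45, 3.21 and 3.90 CPM in controls and 2.48, 3.87, 3.24 and 8.92 CPM with MOCA. The chemokine gene Cxcl10, whose product attracts lymphocytes through Cxcr3, measured 1.10, 1.29, 0.926 and 0.720 CPM in controls and 1.15, 1.22, 1.23 and 2.14 CPM with MOCA. In all 3 MOCA mouse 4 was the highest of 8, and none was called. The log2 fold changes of Rtp4, Xaf1 and Cxcl10 were 0.33, 0.30 and 0.27 (limma adjusted p = 0.512, 0.605 and 0.405), and 0.06, -0.01 and 0.14 without MOCA mouse 4.

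**Figure D3:**
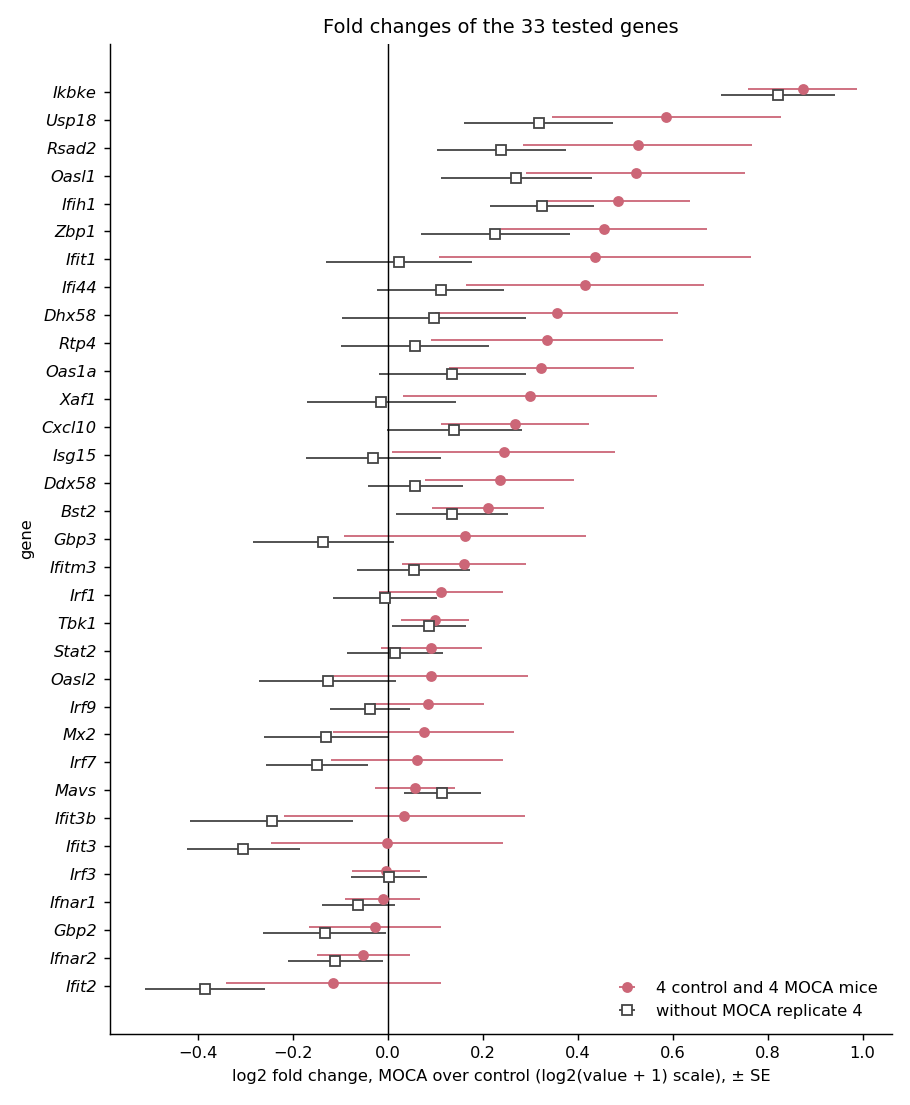
Log2 fold change of MOCA against control for each tested gene, with error bars of 1 SE, from all 8 mice and again without MOCA mouse 4. Ikbke keeps its position, while most interferon-stimulated genes move toward or below 0 when that mouse is left out.

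Across the list, MOCA mouse 4 had the highest value of the 8 mice for 31 of the 33 tested genes (93.9%), beside 17.7% of all tested genes. The exceptions were Mavs, highest in MOCA mouse 3, and Irf3, highest in control mouse 2. In 15 of the 33 genes (45.5%) MOCA mouse 4 was more than 1.5 times the highest of the other 7 mice, beside 0.791% of all tested genes. Relative to the control mean, the list had a median log2 difference of 0.77 in MOCA mouse 4. It was 0.037, 0.041 and -0.046 in MOCA mice 1 to 3, and between -0.11 and 0.12 in the control mice. The largest ratios of MOCA mouse 4 to the control mean were 3.52 for Ifit1, 2.88 for Usp18, 2.79 for Rsad2, 2.76 for Xaf1 and 2.74 for Ifi44. Those genes are effectors and a feedback regulator of the interferon response, whereas the receptor chains, Irf3, Mavs and Tbk1 showed ratios of 0.918 to 1.10 in the same mouse. The ratios did not divide by role. The sensors Zbp1, Dhx58 and Ifih1 had ratios of 2.41, 2.26 and 1.97, and the kinase gene Ikbke 2.19. The effectors Gbp2, Bst2 and Ifitm3 had ratios of 1.27, 1.35 and 1.38.

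**Figure D4:**
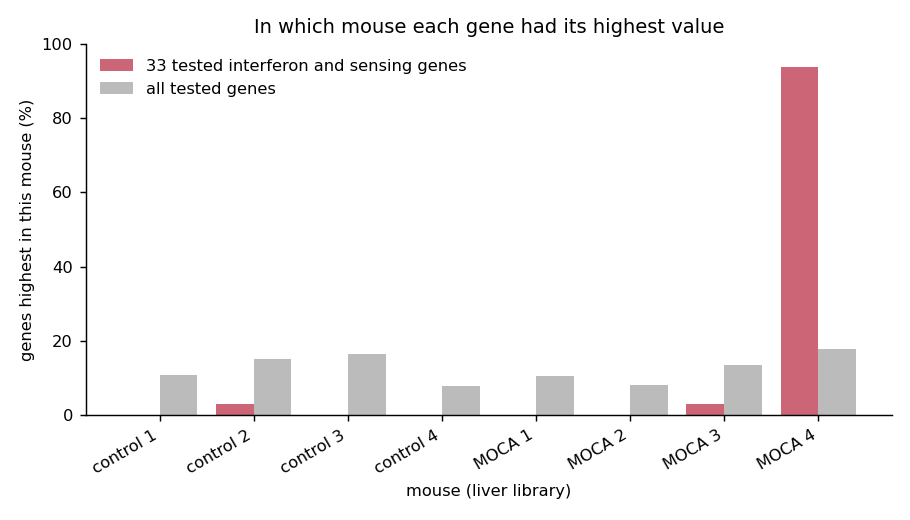
Share of genes for which each mouse holds the highest of the 8 values, as a percentage, for the tested genes of the list and for all tested genes. MOCA mouse 4 holds 93.9% of the list and 17.7% of all genes.

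Values in that mouse were also set out by promoter, with no test. The 14 genes with the element core had a median log2 difference of 0.88 between MOCA mouse 4 and the control mean (0.29 to 1.67). The 14 matched genes with none found in the searched window had a median of 0.58 (-0.12 to 1.33). The ranges overlapped widely. The 6 genes with no promoter in the table had a median of 1.14 (0.69 to 1.40), above both. For the mean of MOCA mice 1 to 3 the same medians were 0.039, -0.010 and 0.13. The list was drawn up largely from known interferon targets, so the share of promoters with the core describes the list and not these livers.

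Markers of other cells moved in part with that mouse. The summed level of 8 Kupffer cell genes was 285 to 343 CPM in controls, 289.7 to 328 CPM in MOCA mice 1 to 3 and 394 CPM in MOCA mouse 4, where 7 of the 8 genes had their highest value. The summed level of 5 hepatocyte genes was lowest in MOCA mouse 4, at 80251 CPM against 87508 to 105230 CPM in the other 7 mice. The monocyte sum of 2 listed genes was 1.47 CPM in MOCA mouse 4, 0.636 to 1.43 CPM in MOCA mice 1 to 3 and 0.515 to 1.05 CPM in controls, and of its genes only Ly6c2 was highest in MOCA mouse 4, at 1.22 CPM. The neutrophil sum of 2 listed genes was 0.733 CPM in MOCA mouse 4, 0.318 to 0.713 CPM in the other MOCA mice and 0.291 to 0.644 CPM in controls. The plasmacytoid dendritic cell sum was 22.8 CPM in MOCA mouse 4, within its control range of 18.7 to 24.9 CPM, with Siglech at 0.122 CPM. The sinusoidal endothelium sum was lowest in MOCA mouse 4, at 287 CPM against 298 to 357 CPM in controls. MOCA mice 1 to 3 were close to that mouse, at 290 to 298 CPM. Stab2 of this list was at 126 to 131 CPM in the MOCA mice and 136 to 171 CPM in controls. The bile duct sum was also lowest in MOCA mouse 4, at 36.3 CPM. It was 42.2 to 54.9 CPM in MOCA mice 1 to 3 and 40.5 to 49.5 CPM in controls. Sums of T cells (2 listed genes) and B cells (1 listed gene) were highest in MOCA mouse 4, at 1.83 and 0.611 CPM. Controls reached 1.68 and 0.232 CPM. Dendritic, NK and stellate cell sums of MOCA mouse 4 lay within the range of the other mice. The monocyte, neutrophil and B cell genes were under the minimum for testing, no tested marker was called, and the part of these cells in the values of MOCA mouse 4 was not tested. Ikbke was at 11.3, 11.3 and 13.5 CPM in MOCA mice 1 to 3, whose Kupffer cell sums lay within the control range. The part of any cell type in the Ikbke values was not tested.

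By level per kilobase of exon in controls, the order ran from Ifitm3 and Bst2 through Mavs (33.8 CPM per kilobase), Ifnar2 (18.3), Irf7 (14.9), Irf3 (11.5) and Ifnar1 (10.4) down to Xaf1 (0.689), Cxcl10 (0.448) and Mx1 (0.195). The first 5 of these were each separated from the next in every control mouse. Irf3 and Ifnar1 overlapped, and so did each neighbouring pair from Stat2 to Irf9, from Rtp4 to Ifi44 and from Ikbke to Cxcl10. Receptors, adaptor and constitutive factors thus stood above most effectors in the untreated livers, apart from the abundant membrane proteins Ifitm3 and Bst2.

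**Figure D5:**
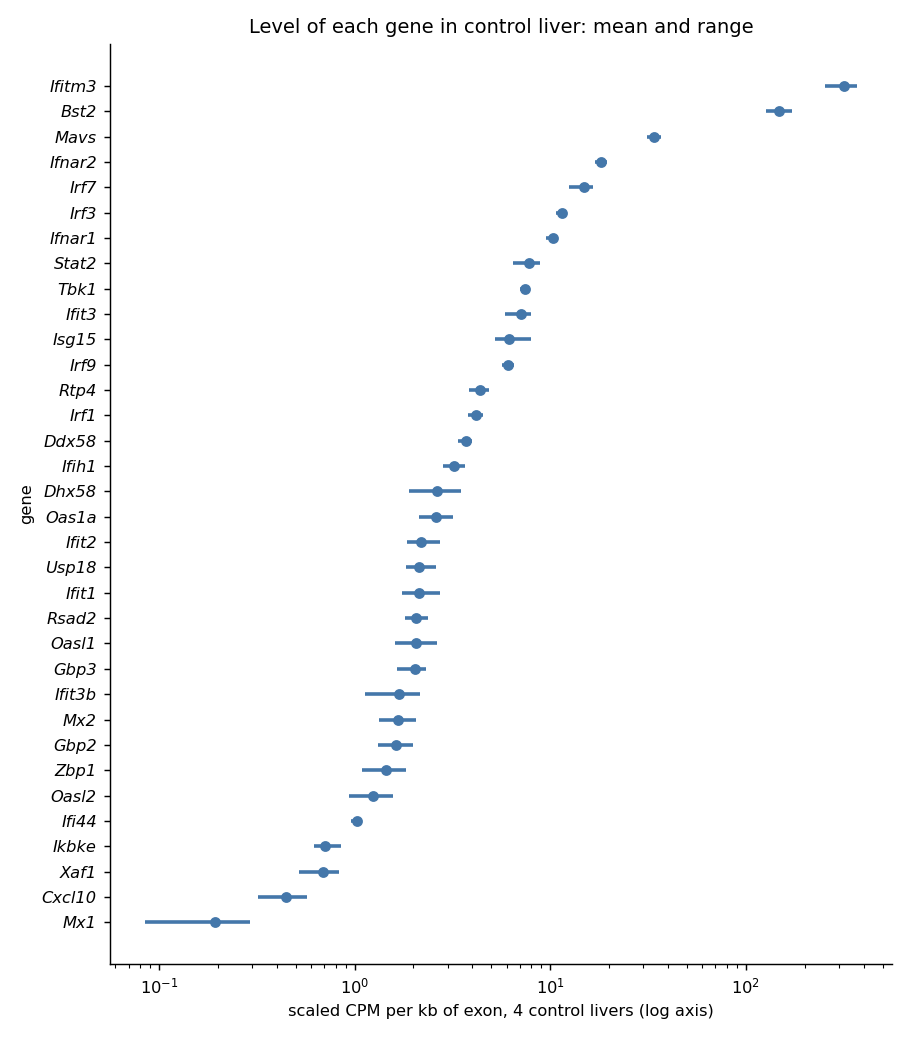
Level of each gene in the control mice in scaled CPM per kilobase of exon on a log axis, with points for the mean and bars from the lowest to the highest of 4 mice. Ifitm3 at 317 and Bst2 at 149 lie at the top and Mx1 at 0.195 at the bottom.

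Other genes of the pathway came from a written list of 121, of which 112 were in the table and 102 were tested. MOCA raised 1 of them, Ly6e, and lowered none (0.98%, beside 0.666% of all tested genes). At an unadjusted p under 0.05 there were 21 (20.6%, beside 17.5% of all tested genes), 19 of them higher. Over all tested genes 2098 passed in either direction, 1131 of them higher. Without MOCA mouse 4 there were 12 of the 102, beside 1667 of all 12008 tested genes (13.9%). Positive fold changes were then 48.0% of the 102 (68.6% with that mouse), beside 51.7% of all tested genes (51.1% with it). Ly6e, an interferon-inducible surface protein, measured 621, 695, 569.9 and 669.6 CPM in controls and 1059, 929, 1002 and 1152 CPM with MOCA, with complete separation of the groups. Its log2 fold change was 0.70 (SE 0.09; limma adjusted p = 0.00912), and 0.64 without MOCA mouse 4 (limma adjusted p = 0.0235). Like Ikbke, and unlike the IFIT genes, its values in MOCA mice 1 to 3 were all above the controls.

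Among 61 tested further interferon-stimulated genes, 13 had an unadjusted p under 0.05 (21.3%, beside 17.5% of all tested genes). Ly6e alone was called (1.64%, beside 0.666% of all tested genes). Next by p was Ifi35, at 15.3, 13.9, 14.5 and 17.9 CPM in controls and 20.3, 19.8, 17.5 and 23.6 CPM with MOCA (log2 fold change 0.38, or 0.30 without MOCA mouse 4; limma adjusted p = 0.122). Herc6, the mouse Isg15 ligase, was at 21.1, 16.9, 16.4 and 19.3 CPM in controls and 25.1, 25.1, 21.6 and 39.5 CPM with MOCA (log2 fold change 0.54, or 0.37 without MOCA mouse 4; limma adjusted p = 0.128). Both were highest in MOCA mouse 4, and only MOCA mouse 3 for Ifi35 fell inside a control range. MOCA mouse 4 was the highest of 8 for 50 of the 61 (82.0%), beside 17.7% of all tested genes. The median log2 difference of the 61 from the control mean was 0.53 in that mouse, and 0.027, 0.097 and -0.061 in MOCA mice 1 to 3. Without MOCA mouse 4, 8 of the 61 had an unadjusted p under 0.05, beside 13.9% of all tested genes. Positive fold changes were then 47.5% of the 61 (80.3% with that mouse), beside 51.7% of all tested genes.

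Of 26 tested sensing and adaptor genes, 5 had an unadjusted p under 0.05 (19.2%, beside 17.5% of all tested genes) and none was called. Without MOCA mouse 4 there were 3 (13.9% of all tested genes), and again none was called. Ticam1, the TRIF adaptor that links Tlr3 to TBK1, measured 15.2, 13.3, 12.8 and 16.0 CPM in controls and 21.8, 21.1, 29.0 and 18.0 CPM with MOCA. Every MOCA mouse was above every control, with MOCA mouse 4 the lowest of the MOCA mice, and the log2 fold change was 0.60 (SE 0.13; limma adjusted p = 0.0632). DESeq2 called it with an adjusted p of 0.00275. Traf3 and Nfkb1, which act downstream of the adaptors, had log2 fold changes of 0.24 and 0.28 (limma adjusted p = 0.193 and 0.166). Tmem173, the STING gene of the DNA-sensing arm, was low, at 2.03, 2.00, 1.85 and 1.92 CPM in controls and 1.27, 1.48, 1.62 and 1.83 CPM with MOCA. All its MOCA values lay under all control values, but the difference was not called (log2 fold change -0.21, SE 0.11; limma adjusted p = 0.361).

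Of 12 tested JAK-STAT and IRF genes, 3 had an unadjusted p under 0.05 (25.0%, beside 17.5% of all tested genes) and none was called. Without MOCA mouse 4 there was 1 (13.9% of all tested genes), and again none was called. Ptpn6, a phosphatase, and Tyk2, a receptor-bound kinase, had log2 fold changes of 0.30 and 0.19 (limma adjusted p = 0.232 and 0.244). Of 11 interferons and receptors of interferon-gamma and lambda on that list, 4 were in the table and 3 were tested, with log2 fold changes of -0.12 for Ifngr1, 0.04 for Ifngr2 and -0.02 for Il10rb (limma adjusted p = 0.541, 0.840 and 0.953).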

How the data were processed

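Liver RNA from 4 control and 4 MOCA mice, numbered as separate mice in the labels, gave 1 library each. The tools were edgeR, RSEM, Bowtie2 and Trimmomatic 0.38, with build mm10, per the submitters' processing notes, which state neither role nor order. The authors deposited 1 table of 15210 genes, whose normalised counts are a scaled signal. Of these values 100% were whole multiples of 1 read within 0.001, so reads were recovered, and the deposited values are TMM-scaled CPM. Replicate pairs differed by more than sampling noise (13.2 to 28.7 times it, by chi-square over degrees of freedom).

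Groups were compared on log2(value + 1) with limma 3.58.1 (R 4.3.3), using eBayes trend and no covariates, checked on simulated data. Genes needed a value of at least 1 in 4 of 8 libraries, which left out 3202. edgeR 4.0.16 and DESeq2 1.42.0 on whole reads were alternatives, with other pseudocounts, filters, scalings, moderation, a replicate block and each mouse left out. Every gene of the list is named; of the other pathway genes, those called, the 3 with the smallest p in each group, and Tmem173; of marker lists, the defining gene. A few genes that this rule names are not reported here. The genes, the lists and the check without MOCA mouse 4 were chosen with earlier results of these data known. Lengths are unions of GENCODE M21 exons.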

Additional observations from a re-analysis of the deposited data

Results flagged for a closer look

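Within the 4 MOCA mice, the gap between the highest mouse and the next, divided by the range of the group, passed Dixon's 95% critical value for 4 samples in 9 genes of the list. The ratio was 0.979 for Ifit2, 0.955 for Mx2, 0.935 for Oasl2, 0.914 for Cxcl10, 0.893 for Ifit1, 0.860 for Stat2, 0.860 for Ifit3, 0.848 for Isg15 and 0.832 for Ifit3b. In each of the 9 the high mouse was MOCA mouse 4, and no control mouse was singled out as high. The lowest mouse of each group was tested the same way and passed for no gene of the list. With both ends tested, chance passes about 1 in 20 groups. MOCA mouse 4 was singled out as high in 9 of 33 tested genes of the list, beside 1.14% of all tested genes. These genes share regulators and libraries, so the 9 are not independent of each other.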

How the results depend on the processing

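Ikbke was called in all 12 other settings (log2 fold change 0.67 to 0.97, adjusted p from 2.72e-07 to 0.0387) and with each of the 8 mice left out (0.82 to 0.95). The number of genes of the list called was 1 in every setting except DESeq2, with 2. Other pathway genes called were 1 by limma, 4 by DESeq2 (Ticam1, Herc6 and Ly6e among them), 3 with columns scaled to equal sums (Ticam1 and Ly6e among them) and 2 with robust moderation (Ticam1 and Ly6e). Over all genes, 80 calls became 82 with edgeR, 425 with DESeq2, 171 with equal sums and 30 with a replicate block. Leaving out each mouse gave 29 to 77 calls over all genes, with 29 without control mouse 3, 45, 47 and 40 without control mice 1, 2 and 4, 42 without MOCA mouse 2 and 39 without MOCA mouse 4. The median of the list ran from 0.0234 without MOCA mouse 4 to 0.25 without MOCA mouse 3. Higher calls were 60.0% of all calls, 77.2% with equal sums and 49.5% with upper quartile scaling. Equal sums moved the median of all genes by 0.048 and turned the sign of 5 uncalled genes (Ifnar1, Ifnar2, Irf3, Ifit3 and Gbp2). Without MOCA mouse 4, 10 uncalled genes turned sign (Irf1, Irf3, Irf7, Irf9, Isg15, Ifit3b, Oasl2, Mx2, Gbp3 and Xaf1). The causes of these changes were not tested. Same-numbered mice did not deviate together (correlations -0.074, -0.0014, 0.036 and -0.044), and with the replicate block Ikbke had an adjusted p of 0.0387. Without a filter, Mx1 had a log2 fold change of 0.32 (limma adjusted p = 0.419), on 5 to 32 reads per library.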

Other observations

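MOCA mouse 4 was more than 1.5 times the highest other mouse for 95 of 12008 tested genes, of which 15 were on the list, 13 were other pathway genes and 67 were on neither. The genes named here were chosen after their values were seen. Gbp10, a further interferon-induced GTPase, was at 7.96 CPM in the control mean, 14.5 in the mean of MOCA mice 1 to 3 and 56.3 in MOCA mouse 4, and Ddx60, a helicase related to the RIG-I pathway, was at 7.46, 8.03 and 18.6 CPM. Genes of dividing cells were also among them, with Mki67 at 3.73, 4.06 and 12.4 CPM, Lmnb1 at 2.66, 3.02 and 6.48 CPM and Mcm5 at 1.598, 1.54 and 3.48 CPM. Elovl6, a fatty acid elongase, was at 47.9, 77.6 and 184 CPM, and Pklr, a liver glycolytic enzyme, was at 117, 116 and 200.6 CPM. None of these 7 genes was called between the groups by limma, with adjusted p-values from 0.0977 for Elovl6 to 0.675 for Mcm5. Ly6a and Ddias, also among the 95, were called (limma adjusted p = 0.0371 and 0.0202). Ly6a was at 18.9, 59.2 and 137 CPM and Ddias at 1.13, 3.19 and 6.11 CPM, in the same order.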
